A study of Mus musculus with 4 samples.

Results

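Laminins, nidogens and integrins are the proteins with which epithelial cells build and hold on to their basement membrane. The genes were taken from the deposited table of mouse cochlear hair cells by symbol: laminin chains (Lama, Lamb and Lamc with a digit), nidogens (Nid with a digit) and symbols starting with Itga or Itgb, together with Hspg2, Agrn and Dag1. They numbered 47 of 23996 rows. The 47 comprised 11 laminin chains, 2 nidogens, the heparan sulfate proteoglycans Hspg2 and Agrn, dystroglycan (Dag1), 18 integrin alpha subunits, 9 integrin beta subunits, and 4 genes that are not integrins although their symbols match. These 4 were Itgb1bp1, Itgb1bp2 and Itgb3bp, named for proteins that bind integrin beta subunits, and Itgbl1, an integrin-beta-like protein.

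All 4 libraries held cells that were sorted at postnatal day 7 from cochleae of mice in the C57BL/6J background. The mice carried Sox2-CreER, a tamoxifen-activated Cre recombinase under control of Sox2, a gene of supporting cells, with the Cre-dependent CAG-loxP-stop-loxP-Atoh1-HA transgene, the Atoh1-eGFP reporter and the Cre-dependent Rosa26-tdTomato reporter. Late on postnatal day 3 they received tamoxifen (0.20 mg per g bodyweight), while controls had corn oil alone. The labels do not say which injection the mice that gave original hair cells had. The tdTomato of new hair cells required Cre activated by tamoxifen. Original hair cells were sorted as eGFP+ cells (2 libraries), and new hair cells, which arose where Cre had switched on Atoh1, as eGFP+/tdTomato+ cells (2 libraries). Atoh1 is a transcription factor required for hair cells to form. Both sexes were used, and the labels do not say how many animals went into a library.

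A laminin is a heterotrimer of 1 alpha, 1 beta and 1 gamma chain, which polymerizes into the sheet on which an epithelium rests. Nidogens and perlecan (Hspg2) link that sheet to the collagen IV network. Cells hold the sheet through integrins, each a pair of 1 alpha and 1 beta subunit, and through dystroglycan. In the cochlea the sensory epithelium rests on the basilar membrane; supporting cells contact this basement membrane, whereas mature hair cells do not.

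The deposited table gave 1 FPKM value (sequenced fragments scaled by transcript length and by the mapped total) per gene and group. The values below therefore carry no replicate error, and the spread between libraries of a group could not be measured. Depth is unknown. FPKM summed to 2165833 in original but to 244225 in new hair cells (8.87-fold less), so each direction below is on the deposited scale unless another scaling is named. Where a pair of FPKM values follows a gene without naming the groups, original hair cells come first. All 9 hair cell markers were lower in new hair cells (8 of 9 under each other scaling). Supporting cell markers were higher in 8 of 10 cases (10 of 10 with quantile normalization or equal sums). Of 9026 genes at 1 FPKM or more in a group and above 0 in both, 54.7% were lower and 45.3% higher. The higher share was 56.0% after quantile normalization and 77.7% with equal sums. On the deposited scale Sox2 (61.5 and 21.8 FPKM) and S100a1 (15179 and 3617 FPKM) were the supporting cell markers that were lower. The 11 supporting cell genes summed to 15428 FPKM in original against 4696 FPKM in new hair cells. No gene passed an adjusted p of 0.05. In sorted bulk cells, fewer cells of a type and less RNA per cell cannot be told apart.

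The promoter sequences of 4 members are shown first because they represent both directions of difference: Dag1, lower in new hair cells, and Itgb5, Agrn and Lamb1, higher there. Each is the 250 bases before the RefSeq transcription start site (build GRCm38.p6), and was chosen because the member differed at least 2-fold and that start site lay within 1 base of the edge of the deposited locus. The windows are chr9:108263959-108264208 (minus strand) for Dag1, chr16:33829415-33829664 (plus strand) for Itgb5, chr4:156197489-156197738 (minus strand) for Agrn and chr12:31265043-31265292 (plus strand) for Lamb1. Capitals mark the GC box GGGCGG, which reads CCGCCC on the other strand, and the palindromic E-box CAGCTG, an E-box of the kind that Atoh1 and related factors bind.
Dag1: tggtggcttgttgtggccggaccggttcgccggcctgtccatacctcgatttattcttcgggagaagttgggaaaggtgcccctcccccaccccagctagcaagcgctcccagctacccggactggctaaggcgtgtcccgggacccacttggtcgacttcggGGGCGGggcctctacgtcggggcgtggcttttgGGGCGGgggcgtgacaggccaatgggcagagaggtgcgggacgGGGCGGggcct
Itgb5: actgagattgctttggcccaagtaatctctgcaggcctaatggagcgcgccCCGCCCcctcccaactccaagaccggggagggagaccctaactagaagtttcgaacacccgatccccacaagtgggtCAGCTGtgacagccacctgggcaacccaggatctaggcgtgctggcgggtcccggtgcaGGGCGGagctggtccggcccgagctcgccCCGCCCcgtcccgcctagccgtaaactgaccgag
Agrn: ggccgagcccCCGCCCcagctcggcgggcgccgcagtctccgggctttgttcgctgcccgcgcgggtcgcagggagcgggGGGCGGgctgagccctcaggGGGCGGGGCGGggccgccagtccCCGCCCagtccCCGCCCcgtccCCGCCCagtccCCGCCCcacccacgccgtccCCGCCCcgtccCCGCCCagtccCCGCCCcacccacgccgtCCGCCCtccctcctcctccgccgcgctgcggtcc
Lamb1: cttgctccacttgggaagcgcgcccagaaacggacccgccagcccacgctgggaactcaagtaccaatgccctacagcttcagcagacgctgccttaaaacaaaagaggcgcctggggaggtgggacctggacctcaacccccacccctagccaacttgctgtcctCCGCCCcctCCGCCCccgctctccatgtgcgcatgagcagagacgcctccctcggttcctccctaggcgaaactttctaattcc
Itgb5 was the only one of these 4 with a CAGCTG, which began 122 bases before the start site, beside 3 GC boxes. Dag1 held 3 GC boxes, Lamb1 held 2 and Agrn held 12, of which 1 pair overlaps. Of the 47 members, 31 had a window in the RefSeq table, among them 11 of the 14 that reached 1 FPKM. CAGCTG occurred in 3 of these 11 (Itgb1bp1, Itgb5 and Itga9, the last from a start site 104983 bases inside the deposited locus), against 13.0% of all 32851 windows of this length, and the GC box in 6 of 11 (Agrn, Dag1, Itgb1, Itgb5, Lama5 and Lamb1), against 32.7%. The E-box CAGATG, searched on both strands, occurred in 0 of 11 and in 14.4% of all windows. A member was counted if any of its windows held the motif. The percentages count each window singly, whether or not its gene was tested, so they are not like for like. The GC box was thus present upstream of genes that differed in opposite directions, and the matches are descriptions of letters, not of bound sites.

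Most of the 47 genes were listed at low levels. Of them, 14 reached 1 FPKM in at least 1 group and were above 0 in both (29.8%), against 37.6% of all rows of the table, and these 14 are called tested members. Only 5 were at or above 1 FPKM in both groups (Dag1, Itga6, Itgb1, Itgb1bp1 and Lama5). Another 3 passed through original hair cells alone (Itga7, Itgb3bp and Lamc1), and 6 through new hair cells alone (Agrn, Itga8, Itga9, Itgav, Itgb5 and Lamb1). The matching shares of all tested genes were not counted, so 6 against 3 is not read as a result about the members. A gene that passed through 1 group had to differ, so the counts that follow describe these genes and support no statement about the family.

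Of the 14 tested members, 9 were higher in new hair cells, where 45.3% of all 9026 tested genes were higher, and 5 were lower, where 54.7% of tested genes were lower. On the log2(FPKM + 1) scale, 6 were at least 2-fold higher (19.9% of tested genes) and 3 at least 2-fold lower (34.9%). Their median difference, new minus original, was 0.37, beside -0.21 over all tested genes. In the authors' deposited table the unadjusted p was under 0.05 for 1 higher member, Itgb5 (0.554% of tested genes), and for 2 lower members, Dag1 and Lamc1 (8.83%). After Benjamini-Hochberg adjustment of the p-values of the authors' deposited table over all tested genes, 0 of 14 members passed 0.05 (0% of tested genes), the smallest adjusted p of a member being 0.526.

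**Figure D1:**
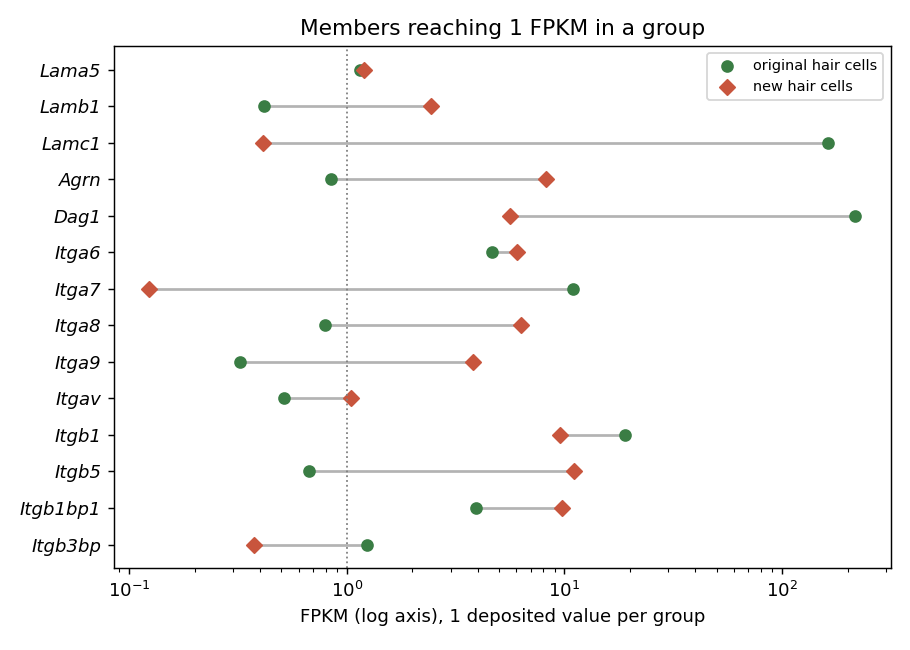
FPKM on a log axis of the 14 members that reached 1 FPKM, with circles for original and diamonds for new hair cells, 1 deposited value per group and no error. The dotted line is at 1 FPKM. Lamc1 and Dag1 lie above 100 FPKM in original hair cells, whereas no member exceeds Itgb5 at 11.0 FPKM in new hair cells.

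The range of levels differed between the groups on the deposited scale, where FPKM of the whole table summed 8.87-fold less in new hair cells. The share of all tested genes above 10 FPKM was not counted, so fewer high levels there cannot be called particular to the members. In original hair cells the tested members ran from 0.322 FPKM in Itga9 to 217 FPKM in Dag1, and Dag1, Lamc1, Itgb1 and Itga7 exceeded 10 FPKM. In new hair cells they ran from 0.123 FPKM in Itga7 to 11.0 FPKM in Itgb5, the only one above 10 FPKM. The order of levels in original hair cells, highest to lowest, was Dag1, Lamc1, Itgb1, Itga7, Itga6, Itgb1bp1, Itgb3bp, Lama5, Agrn, Itga8, Itgb5, Itgav, Lamb1 and Itga9. In new hair cells it was Itgb5, Itgb1bp1, Itgb1, Agrn, Itga8, Itga6, Dag1, Itga9, Lamb1, Lama5, Itgav, Lamc1, Itgb3bp and Itga7. Itgb1 had rank 3 in both orders. With no replicate value, it cannot be said which neighbours in either order differ.

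Laminin gamma chains held the widest contrast. Lamc1 (mm10, chromosome 1, 153218922 to 153332786) encodes the gamma chain found in most laminins. It stood at 163 FPKM in original against 0.410 FPKM in new hair cells. This was 398-fold lower in the group labelled new, and the p of 0.00845 from the authors' deposited table became 0.526 after adjustment. Lamc1 lay at the 87.4 percentile of tested genes in original and at the 6.46 percentile in new hair cells, and it was lower under all 3 other scalings. Lamc3 was listed at 0 in original and at 0.133 FPKM in new hair cells.

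Laminin alpha chains were low throughout. Lama5 (chromosome 2, 180176373 to 180225859), an alpha chain of many epithelial basement membranes, was at 1.15 FPKM in original against 1.20 FPKM in new hair cells, and the authors' deposited table gave p = 0.965. Lama1 was at 0.0230 FPKM in original and listed at 0 in new hair cells, and Lama4 was at 0.00142 and 0.00313 FPKM. Lama2, the alpha chain of muscle and Schwann cell basement membranes, was listed at 0 in original and at 0.0223 FPKM in new hair cells. Lama3 was listed at 0 in original and at 0.000534 FPKM in new hair cells. No alpha chain other than Lama5 therefore came near 1 FPKM in either group.

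Among the beta chains only Lamb1 (chromosome 12, 31265294 to 31329639) reached 1 FPKM. It was at 0.417 FPKM in original against 2.43 FPKM in new hair cells, a 5.82-fold higher level in new hair cells, and the authors' deposited table gave p = 0.172. Lamb2 was at 0.252 FPKM in original against 0.236 FPKM in new hair cells. Lamb3, a beta chain of epithelial anchoring laminin, was at 0.160 FPKM in original against 0.274 FPKM in new hair cells.

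The 3 chain classes, which join in equal numbers in the trimer, were not balanced as transcripts per length. In original hair cells the summed FPKM was 1.17 over alpha, 0.829 over beta and 163 over gamma chains, and Lamc1 made up 99.8% of the gamma sum. Lamc1 was 142-fold above Lama5 and 390-fold above Lamb1 in original hair cells. In new hair cells the sums were 1.23 over alpha, 2.94 over beta and 0.826 over gamma chains, and Lamb1 was 5.94-fold above Lamc1. Trimmed-mean and equal-sums scaling multiply a whole group by 1 factor and leave these ratios as they are, whereas quantile normalization changes them.

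The linkers of the basement membrane were under 1 FPKM apart from agrin. Nid1 was at 0.0429 FPKM in original against 0.289 FPKM in new hair cells, and Nid2 at 0.0710 and 0.126 FPKM. Hspg2 (perlecan) was at 0.0523 FPKM in original against 0.0101 FPKM in new hair cells. Agrn (chromosome 4, 156165290 to 156197488) encodes agrin, a proteoglycan that binds laminin and dystroglycan and is best known from the neuromuscular junction. It was at 0.845 FPKM in original against 8.24 FPKM in new hair cells, 9.75-fold higher in new hair cells, and the p of 0.0963 from the authors' deposited table became 0.578 after adjustment. Agrn was higher in new hair cells under all 3 other scalings as well. Trimmed-mean and equal-sums scaling raise every value of new hair cells, so only quantile normalization could have turned it.

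Dystroglycan, the receptor for agrin and laminin that is not an integrin, went the other way. Dag1 (chromosome 9, 108204861 to 108263958) was at 217 FPKM in original against 5.61 FPKM in new hair cells. It was 38.7-fold lower in new hair cells, and the p of 0.0486 from the authors' deposited table became 0.527 after adjustment, and it was lower under all 3 other scalings. Of Dag1 and its ligand Agrn, Dag1 was thus the higher in original hair cells and Agrn the higher in new hair cells.

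**Figure D2:**
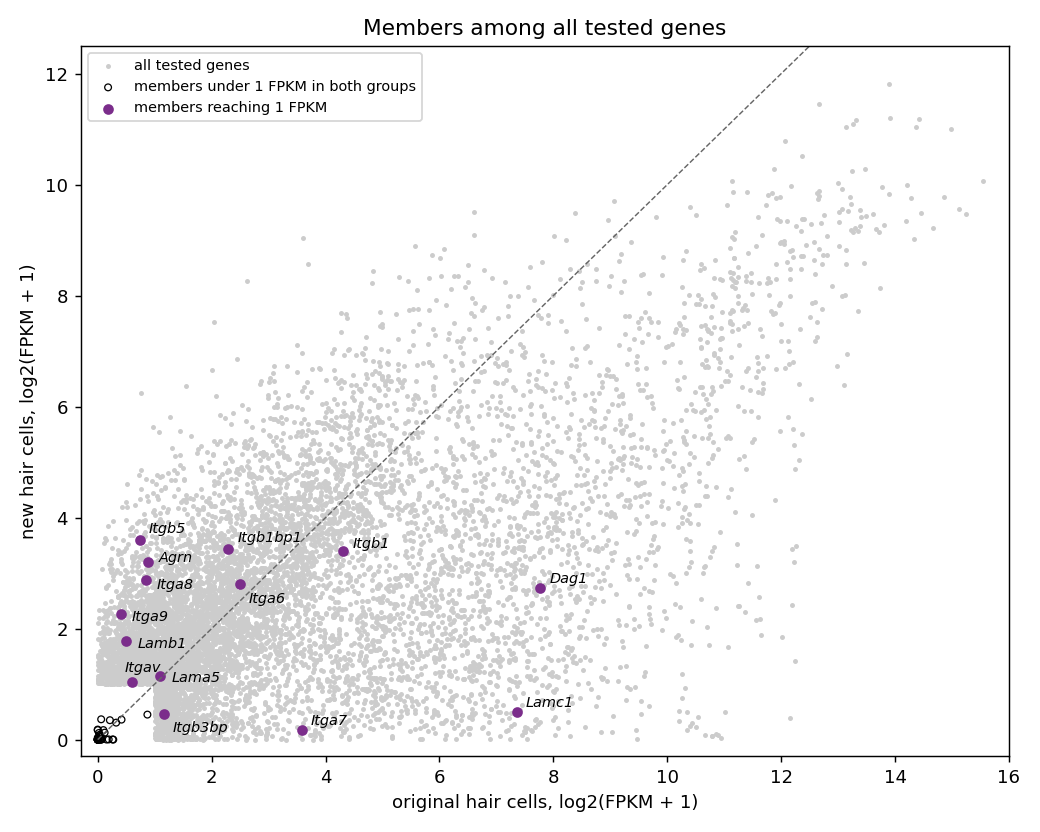
Levels in original (horizontal axis) and new hair cells (vertical axis) as log2(FPKM + 1), with grey points for all 9026 tested genes, filled circles for the 14 tested members, open circles for the other 33 and a dashed line at equal levels. Lamc1, Dag1 and Itga7 lie far below the line, and Itgb5, Agrn and Itga8 above it at the left edge. Grey points stop short of the lower left corner because of the 1 FPKM filter.

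Integrin alpha subunits differed in which of them was the most abundant. Summed FPKM over the 18 alpha rows was 17.7 in original and 17.6 in new hair cells on the deposited scale. The log2 ratio of these sums, new over original, was -0.01 there but 0.33 with trimmed-mean scaling, 0.67 after quantile normalization and 3.13 with equal sums. Itga7 made up 61.8% of the sum in original hair cells, and Itga8 made up 36.0% of it in new hair cells. Of the 5 alpha subunits that reached 1 FPKM, 4 were higher in new hair cells (Itga6, Itga8, Itga9 and Itgav) and 1 was lower (Itga7). Of all tested genes, 45.3% were higher. The 1 FPKM filter set most of these directions: Itga8, Itga9 and Itgav passed it through new hair cells alone, and Itga7 through original ones alone. The directions were the same after quantile normalization, where 56.0% of all tested genes were higher. Itga7 also stayed lower under the other 2 scalings, which could not turn the higher ones.

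Itga7 (chromosome 10, 128933813 to 128960988) encodes a laminin-binding subunit best known from muscle. It was at 11.0 FPKM in original against 0.123 FPKM in new hair cells, a ratio of 88.9 in favour of the original cells, and the p of 0.231 from the authors' deposited table became 0.698 after adjustment. Its locus is shared with the row of Mettl7b, which was not a member. Itga6 (chromosome 2, 71786939 to 71858427), a laminin-binding subunit of many epithelia, was at 4.64 FPKM in original against 6.02 FPKM in new hair cells, and the authors' deposited table gave p = 0.842. Of these laminin-binding alpha subunits, Itga7 stood above Itga6 in original and far below it in new hair cells. Itga3, another laminin-binding subunit, was listed at 0 in original and at 0.126 FPKM in new hair cells.

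Itga8 (chromosome 2, 12106660 to 12312315) pairs with Itgb1 and binds nephronectin and other matrix ligands; in the mouse its loss is known to disturb hair bundle formation. It was at 0.792 FPKM in original against 6.33 FPKM in new hair cells, 7.99-fold higher in new hair cells, and the p of 0.133 from the authors' deposited table became 0.618 after adjustment. Its locus is shared with the row E030013I19Rik. Its ligand nephronectin, Npnt, stood at 1.84 FPKM in original against 10.3 FPKM in new hair cells, and the authors' deposited table gave p = 0.119. Itga8 and Npnt were therefore both higher in new hair cells, also after quantile normalization, the only other scaling that could have turned them. Itgb1, the partner of Itga8, was lower on the deposited scale and with trimmed-mean scaling.

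Itga9 (chromosome 9, 118606709 to 118901003), a subunit that binds tenascin and other matrix proteins, was at 0.322 FPKM in original against 3.81 FPKM in new hair cells. This was 11.8-fold higher in new hair cells, and the authors' deposited table gave p = 0.0929. Its ligand tenascin C, Tnc, stood at 21.1 FPKM in original against 5.81 FPKM in new hair cells, but was higher in new hair cells with equal sums. Itgav (chromosome 2, 83724397 to 83806917), the subunit shared by several receptors for RGD-containing proteins, was at 0.511 FPKM in original against 1.04 FPKM in new hair cells, and the authors' deposited table gave p = 0.466.

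Integrin beta subunits had nearly equal sums, 20.8 FPKM in original against 21.05 FPKM in new hair cells over 9 rows on the deposited scale, but different leading members. The near equality depended on the scale: the log2 ratio of the sums, new over original, was 0.02 there, 0.37 with trimmed-mean scaling, 1.22 after quantile normalization and 3.17 with equal sums. Itgb1, the common partner of most alpha subunits listed here, held 90.8% of the beta sum in original hair cells. In new hair cells Itgb5 held 52.5% and Itgb1 most of the rest. Itgb5 was 28.1-fold below Itgb1 in original hair cells and 1.16-fold above it in new hair cells.

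Itgb5 (chromosome 16, 33829665 to 33949338) pairs with Itgav in a receptor for vitronectin. It was at 0.671 FPKM in original against 11.0 FPKM in new hair cells, 16.4-fold higher in new hair cells, and the p of 0.0344 from the authors' deposited table became 0.526 after adjustment. It lay at the 9.96 percentile of tested genes in original and at the 74.0 percentile in new hair cells. Itgb5 was also higher after quantile normalization, the only other scaling that could have turned it. In new hair cells Itgb5 was 10.6-fold above its partner Itgav, compared with 1.31-fold in original hair cells.

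Itgb1 (chromosome 8, 128685654 to 128733579) was at 18.9 FPKM in original against 9.52 FPKM in new hair cells, and the authors' deposited table gave p = 0.583. It was 1.98-fold lower in new hair cells on the deposited scale and lower with trimmed-mean scaling, but higher with quantile normalization or equal sums. Its place among all tested genes was close in both groups, at the 69.6 percentile in original and the 71.4 percentile in new hair cells. Itgb1bp1 (chromosome 12, 21111756 to 21286237) encodes a protein that binds the cytoplasmic tail of the Itgb1 product. It was at 3.91 FPKM in original against 9.78 FPKM in new hair cells, 2.50-fold higher, and the p of 0.511 from the authors' deposited table became 0.874 after adjustment, and its locus is shared with the row of Asap2. Itgb3bp, which encodes a centromere and nuclear receptor cofactor protein, was at 1.24 FPKM in original against 0.373 FPKM in new hair cells, lower except with equal sums.

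The other 6 beta subunits above 0 in a group stayed under 1 FPKM. The highest was Itgb6, a subunit of epithelial cells, at 0.831 FPKM in original against 0.366 FPKM in new hair cells. Itgb4, the partner of Itga6 in hemidesmosomes, was at 0.0148 FPKM in original against 0.0864 FPKM in new hair cells, and its locus is shared with Galk1. Itgb3 was at 0.0412 and 0.0356 FPKM, Itgb8 at 0.0440 and 0.000577 FPKM and Itgb2l at 0.113 and 0.000692 FPKM. Itgb7 was at 0.209 FPKM in original and listed at 0 in new hair cells.

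Leukocyte integrins were near or at 0. Itgal, Itgax, Itgad and Itgb2, the common beta subunit of leukocyte integrins, were listed at 0 in both groups. Itgam was at 0.0305 FPKM in original against 0.00100 FPKM in new hair cells, Itgae was at 0.0433 FPKM in original and listed at 0 in new hair cells, and Itga4 was at 0.198 and 0.00152 FPKM. Beside them, markers of macrophages and immune cells summed to 10.4 FPKM in original against 102 FPKM in new hair cells over 12 genes, of which Tyrobp and Fcer1g made up most in new hair cells (71.7 and 28.7 FPKM). Ptprc, the defining leukocyte marker, was listed at 0 in both groups, and Csf1r was at 0.282 FPKM in original against 0.00365 FPKM in new hair cells.

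The remaining low alpha subunits were collagen, fibronectin and platelet receptors. Itga11 was at 0.143 FPKM in original against 0.00206 FPKM in new hair cells, Itga10 at 0.0876 and 0.0903 FPKM, and Itga1 at 0.000286 FPKM in original and listed at 0 in new hair cells. Itga5, the fibronectin receptor subunit, was at 0.00437 and 0.00193 FPKM, and Itga2b, the platelet subunit, at 0.00614 and 0.0237 FPKM. Itga2 and Itgbl1 were listed at 0 in both groups, and Itgb1bp2 was at 0.0258 and 0.0631 FPKM. In all, 33 members stayed under 1 FPKM in both groups: 6 were listed at 0 in both, 4 at 0 in original only, 4 at 0 in new only, and 19 were above 0 in both. All 33 had a p of exactly 1 in the authors' deposited table, while the 14 tested members had lower values. No fold is given for these 33.

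Markers of other cochlear cell types were set beside the members that were lower in new hair cells, Lamc1, Dag1 and Itga7. As background to these counts, 54.7% of all tested genes were lower on the deposited scale. After quantile normalization 56.0% of all tested genes were higher, and with equal sums 77.7%. Mesenchyme and fibroblast markers were lower in 6 of 9 tested cases (5 of 9 after quantile normalization or with equal sums), and the 10 genes summed to 2047 FPKM in original against 415 FPKM in new hair cells. Otor, a mesenchyme gene of the cochlea, stood at 1383 and 0.226 FPKM, whereas Lum stood at 89.4 and 375 FPKM. Schwann cell and glia markers were lower in 4 of 5 tested cases (3 of 5 with equal sums) and summed to 998 and 13.9 FPKM over 8 genes, of which Cnp alone stood at 983 FPKM in original and was 246-fold lower in new hair cells. Cdh19 of this list was listed at 0 in original hair cells. Neuron markers were lower in 4 of 6 tested cases (3 of 6 after quantile normalization and 2 of 6 with equal sums) and summed to 12595 and 201 FPKM over 7 genes. Endothelial markers summed to 2.26 and 0.200 FPKM over 6 genes, with Kdr and Cldn5 listed at 0 in both groups, and melanocyte markers to 3.85 and 0.0187 FPKM over 4 genes. The part of these cells in the differences of Lamc1, Dag1 and Itga7 was not tested.

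**Figure D3:**
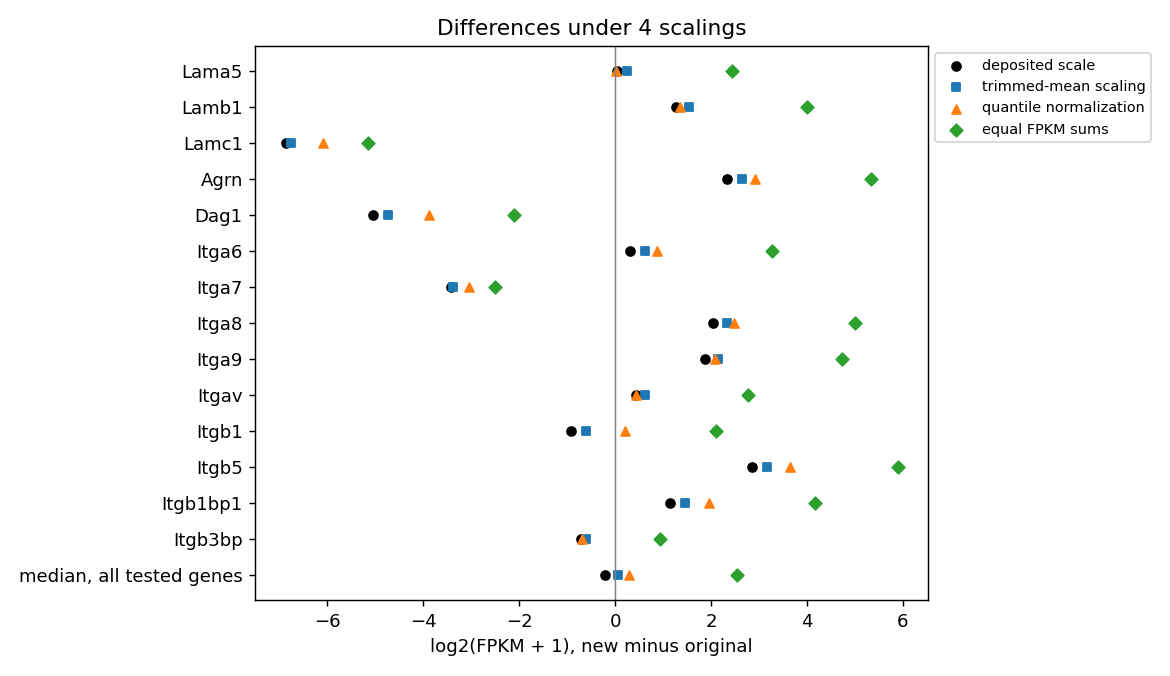
Difference of new minus original on the log2(FPKM + 1) scale for the 14 tested members and for the median of all tested genes, on the deposited scale and under 3 other scalings of the groups. Lamc1, Dag1 and Itga7 stay below 0 and 9 members above 0 under each of the 4, while Itgb1 and Itgb3bp cross 0.

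Of the 14 tested members, 12 kept their direction under all 3 other scalings, 9 higher and 3 lower. Trimmed-mean and equal-sums scaling both raise every value of new hair cells relative to original ones. The 9 higher members could therefore have turned only under quantile normalization, and their keeping direction under the others was fixed in advance. The share of all tested genes that kept their direction was not counted. The median of all tested genes moved with the scaling, from -0.21 on the deposited scale to 0.06 (trimmed mean), 0.28 (quantile normalization) and 2.53 (equal sums). The share of tested genes that were higher in new hair cells moved with it, from 45.3% to 51.1%, 56.0% and 77.7%. Relative to that median, 9 members lay above and 5 below on the deposited scale and with trimmed-mean scaling, and 8 above and 6 below under the others, Lama5 being the member that changed side.

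The partners of these genes were examined through lists of the same pathway. Among 13 tested genes of collagen IV and other basement membrane proteins, new hair cells had 9 at a higher and 4 at a lower level, where 45.3% of all tested genes were higher, with a median of 0.89 on the log2(FPKM + 1) scale. With equal sums 12 were higher and 1 lower, where 77.7% of all tested genes were higher. Sparc, a matrix-binding glycoprotein and the most abundant of them, stood at 659 and 500 FPKM, and Smoc2 at 30.2 and 4.57 FPKM. With equal sums both were higher in new hair cells, and Sparc also after quantile normalization. Col4a1, a main chain of collagen IV, stood at 0.629 FPKM in original against 4.55 FPKM in new hair cells, and Col4a5 at 0.0409 and 2.31 FPKM. The only member of this list with an unadjusted p under 0.05 was Loxl2, a collagen cross-linking enzyme, at 14.2 FPKM in original against 0.205 FPKM in new hair cells, and the authors' deposited table gave p = 0.0352.

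Genes of integrin adaptors and focal adhesions were lower in 11 of 19 tested cases and higher in 8, with a median of -0.69, where 54.7% of all tested genes were lower. They were higher in 11 after quantile normalization and in 14 with equal sums, where 56.0% and 77.7% of all tested genes were higher. The most abundant were the tetraspanins Cd81, at 1692 and 49.3 FPKM, and Cd9, at 497 and 100.0 FPKM. Plec, which encodes plectin, a linker of integrins to intermediate filaments, stood at 49.5 FPKM in original against 0.149 FPKM in new hair cells, and the authors' deposited table gave p = 0.00515. Tns1, encoding tensin, an adaptor of integrin beta tails, went the other way at 0.145 and 1.83 FPKM, and the authors' deposited table gave p = 0.0397. The third gene with an unadjusted p under 0.05 was Cd81, and the authors' deposited table gave p = 0.0193. Ilk, the integrin-linked pseudokinase, stood at 7.45 and 20.7 FPKM, and Vcl, encoding vinculin, at 80.9 and 10.3 FPKM, the latter higher with equal sums.

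Genes of the dystroglycan complex and of the enzymes that glycosylate dystroglycan were higher in 11 of 15 tested cases, with a median of 0.48. Of all tested genes, 45.3% were higher. With equal sums 12 of the 15 were higher, where 77.7% of all tested genes were higher. Those of highest level in original hair cells were lower in new ones, as Dag1 itself was, but ranking by the original level favours such genes. Dtna, encoding dystrobrevin, stood at 112 FPKM in original against 11.2 FPKM in new hair cells. Utrn, encoding utrophin, stood at 60.9 and 0.777 FPKM, and the authors' deposited table gave p = 0.0229. Large, a glycosyltransferase that builds the laminin-binding glycan of dystroglycan, was at 34.4 and 1.31 FPKM, and the authors' deposited table gave p = 0.0588. Pomk, a kinase that acts on the same glycan, was higher in new hair cells, at 7.72 FPKM against 1.28 FPKM in original ones. Ranked by level in new hair cells, the leading genes were Dtna, Pomk, B3gnt1 (3.12 and 4.96 FPKM) and Dtnb (1.24 and 4.62 FPKM). Of these only Dtna was lower there.

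Laminin receptors other than integrins and dystroglycan were lower in 4 of 6 tested cases, with a median of -1.59, where 54.7% of all tested genes were lower. They were lower in 3 of 6 after quantile normalization and 2 of 6 with equal sums. Under these scalings 56.0% and 77.7% of all tested genes were higher. Rpsa, which also encodes a ribosomal protein, stood at 1534 and 351 FPKM, and the glypican Gpc1 at 768 and 20.5 FPKM. Matrix proteases and their inhibitors were higher in 3 of 4 tested cases, with a median of 1.38, where 45.3% of all tested genes were higher. With equal sums 4 of 4 were higher, where 77.7% of all tested genes were higher. Mmp14 stood at 55.5 and 15.0 FPKM, but was higher in new hair cells with equal sums, and the inhibitor Timp2 stood at 4.24 and 21.1 FPKM. Across these 5 lists 0 genes passed after Benjamini-Hochberg adjustment of the p-values of the authors' deposited table over all tested genes, and 5 of 57 tested genes (8.77%) had an unadjusted p under 0.05, a share near the 9.38% of all tested genes.

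**Figure D4:**
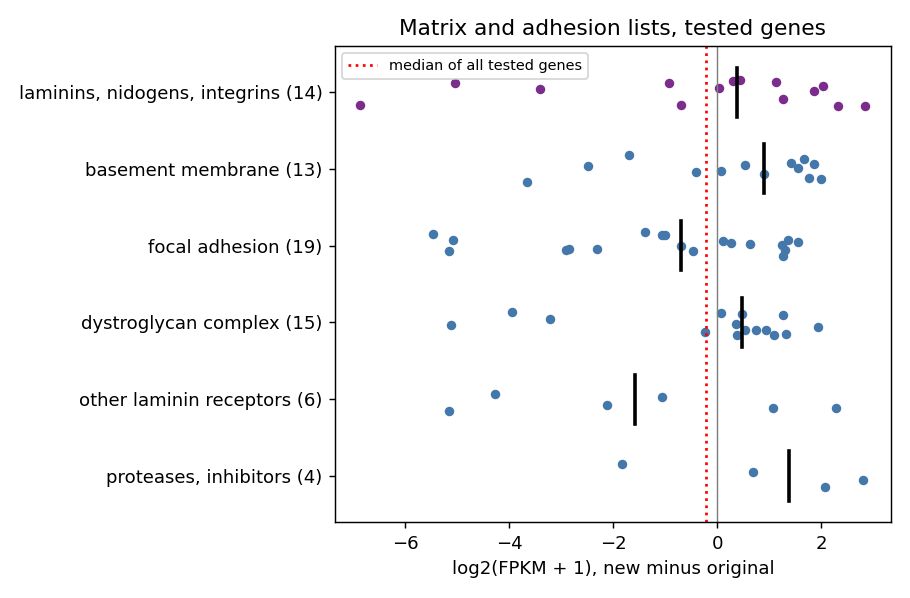
Difference of new minus original on the log2(FPKM + 1) scale for each tested gene (1 point per gene, number of genes in brackets) of the laminins, nidogens and integrins and of 5 related lists. Black bars are list medians and the dotted line is the median of all tested genes, -0.21; points are spread vertically at random. The points of each list lie on both sides of the median of all tested genes and, except in proteases and inhibitors, reach below -3.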

How the data were processed

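The submitters' processing notes name CASAVA 1.8, Trimmomatic, TopHat and build mm10, and the labels a SMART-Seq v4 kit. The deposited table held 1 FPKM value per gene and group, so the authors merged the 2 libraries of a group. How they merged them, how FPKM was computed and which test gave the p-value in the authors' deposited table is not given in these sources, nor whether libraries came from separate animals. Depth is unknown.

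Tests across libraries need a value per library, so limma was not run. Tested genes had at least 1 FPKM in a group and more than 0 in both (9026 genes). Differences were log2(FPKM + 1), new minus original, which understates the change of low genes; folds of single genes are plain FPKM ratios. P-values were adjusted by Benjamini-Hochberg over tested genes, at 0.05. Left out were 3 rows with a deposited log2 of 0 but unequal FPKM, and 1 row was not analysed here. Some genes are not reported here by name. Because 12 members share a locus with other rows, their reads may be split between genes. Deposited starts were raised by 1, which matched 6257 RefSeq starts on the plus strand against 32 without. Named were all members reaching 1 FPKM, with full statistics past 2-fold at 5 FPKM or more or at p under 0.05, and the 2 genes of highest mean per related list; other list members and marker examples were chosen after their values were seen. The members and lists were chosen with earlier results of these data known. Scalings were a trimmed mean (30% of ratios and 5% of levels at each end), quantile normalization and equal FPKM sums, each tested on simulated data like the adjustment except equal sums. Tools were Python 3.11.15 with numpy 2.4.6, pandas 2.3.3 and matplotlib 3.10.9.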

Additional observations from a re-analysis of the deposited data

How the results depend on the processing

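No paired analysis was possible because the deposited table holds 1 value per group and no value per library; for the same reason leaving out a library was not run. With a pseudocount of 0.1 or without rows sharing a locus, no member turned and each count of members and of all genes stayed within 1.5 times. With no filter, 41 members (21 higher, 20 lower) and 17526 genes (8716 higher, 8810 lower) entered, because members under 1 FPKM came in. With a filter of 5 FPKM, 9 members (5 higher) and 5362 genes (1913 higher, 1165 at least 2-fold higher) were left. After quantile normalization 2880 genes were at least 2-fold higher, and with equal sums 10 members were at least 2-fold higher and 3 lower, against 7011 genes higher, 2015 lower, 6278 at least 2-fold higher and 1354 at least 2-fold lower. Of all genes at least 2-fold different, 36.3% were higher on the deposited scale, 45.0% with trimmed-mean scaling, 55.0% after quantile normalization and 82.3% with equal sums. Itgb1 turned to 0.21 after quantile normalization and 2.10 with equal sums, and Itgb3bp to 0.94 with equal sums, on the log2(FPKM + 1) scale. The log2 ratios of summed FPKM, added after seeing the data, were 0.07 for laminin alpha, 1.83 for beta and -7.63 for gamma chains and -0.01 for integrin alpha and 0.02 for beta subunits. They moved to 0.42, 2.18, -7.28, 0.33 and 0.37 with trimmed-mean scaling, 0.069, 2.08, -6.74, 0.67 and 1.22 after quantile normalization, and 3.22, 4.98, -4.48, 3.13 and 3.17 with equal sums. Only the integrin alpha sum turned. The smallest adjusted p of a member, from the authors' deposited p-values, was 0.316 with a filter of 5 FPKM and 0.824 over all rows above 0. Levels under 1 FPKM rest on few reads of unknown number.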
